A study of Mus musculus with 23 samples.

Results

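Immune checkpoints are pairs of cell surface receptors and ligands that dampen the response of T cells and of other leukocytes. PD-1 on T cells is engaged by PD-L1 and PD-L2 on myeloid, tumor, and other cells, and CTLA-4 competes with the activating receptor CD28 for CD80 and CD86 on antigen-presenting cells. LAG-3, TIM-3, and TIGIT are further inhibitory receptors, and galectin-9 is a secreted lectin described as a ligand of TIM-3. In the liver, these pairs are known for the tolerance that Kupffer cells, the resident macrophages, and other liver cells impose on passing lymphocytes.

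The 10 genes described here are the rows of the deposited matrix of 48897 genes that carry the symbols of these receptors and ligands. They comprise 5 receptor genes (*Pdcd1*, *Ctla4*, *Lag3*, *Havcr2*, and *Tigit*) and 5 ligand genes (*Cd274*, *Pdcd1lg2*, *Cd80*, *Cd86*, and *Lgals9*), all of them protein-coding. They were followed through 23 poly(A) RNA-seq libraries of male BALB/c mice aged 4 to 6 weeks. Control liver came from 5 sham-operated mice whose cecal wall was injected with medium alone, and pre-metastatic liver and primary tumor came from the same 9 mice, whose cecal wall was injected with CT26 cells, a colon carcinoma line of this strain. All tissues were collected 3 weeks after the injection. The primary tumors thus grew from a single transplanted cell line rather than from the animals' own epithelium. Each library is a piece of bulk tissue, so more cells of a type and more RNA per cell cannot be told apart.

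The libraries held 51064615 to 60393702 counts in control liver, 44587556 to 79773163 in pre-metastatic liver, and 47005276 to 70884436 in the primary tumor. The tissue labels were checked against marker genes. The summed level of 5 hepatocyte genes was 45136 to 56257 RPKM in control liver, 32096 to 65867 RPKM in pre-metastatic liver, and 6.38 to 267 RPKM in the primary tumor. Of 6 epithelial and tumor markers, 3 exceeded their level in pre-metastatic liver in the tumor (*Krt20*, *Vim*, and the proliferation gene *Mki67*) and 3 were lower (*Epcam*, *Krt8*, and *Krt18*). In the tumors *Krt20* was at 27.8 to 113 RPKM and *Vim* at 2466 to 3319 RPKM, while the epithelial genes *Epcam*, *Krt8*, and *Krt18* were at 0.0168 to 1.88, 0.144 to 5.04, and 2.74 to 11.3 RPKM. The livers were split into an early and a late set at the widest gap of an index of 6 circadian clock genes. Control liver C7 (late set, 0.981) lay nearly midway between the nearest early liver, of mouse M7 (-0.102), and the nearest late liver, of mouse M12 (2.05). It is the 1 control liver that comparisons within the early set leave out. The early set holds 4 control and 5 pre-metastatic livers and the late set 1 and 4, so comparisons were repeated within the early set.

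The genes lie on 5 chromosomes of genome build mm10. *Cd274*, on chromosome 19 from 29367438 to 29388095, and *Pdcd1lg2*, from 29410919 to 29472927, are neighbors on the forward strand. *Cd80* (38457431 to 38495958), *Cd86* (36568956 to 36666077), and *Tigit* (43648861 to 43664416) are all on chromosome 16. *Pdcd1* (94038305 to 94052553) and *Ctla4* (60909025 to 60915832) are on chromosome 1, *Havcr2* (46454931 to 46481255) and *Lgals9* (78962979 to 78984924) on chromosome 11, and *Lag3* (124904359 to 124912434) on chromosome 6. Genes of low level overlap 2 of them in the table. *Gm36043*, a noncoding RNA gene on the opposite strand that overlaps *Cd274*, had a median of 0.335 RPKM in the tumors, and *Ck-ps3*, *Gm8590*, and *Gm41453*, which overlap *Cd80*, had 0.159, 0.298, and 0.111 RPKM. The library kit does not mark strand, so strand cannot separate the reads of overlapping genes. The strand setting of the counting is not given in the sources used here.

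The 250 bases before the start of transcription are shown for 5 of these genes, because they set the neighboring PD-1 ligands side by side and include *Lgals9*, the one member that was lower in the tumor. The sequences are those of RefSeq (GRCm38.p6), which matched 8 of the 10 members, all but *Cd86* and *Lag3*. They were searched on both strands for TTCNNNGAA, a palindrome found in interferon gamma-activated elements, and for GAAA followed after any 2 bases by GAAA, a repeat found in interferon-stimulated elements. The third pattern was TGANTCA, which covers the AP-1 sites TGACTCA and TGAGTCA but also allows A or T in the middle. Capitals mark a match. The start used for *Cd80* lies within the span of the gene in the deposited table.
Cd274, chr19:29367188-29367437, forward strand: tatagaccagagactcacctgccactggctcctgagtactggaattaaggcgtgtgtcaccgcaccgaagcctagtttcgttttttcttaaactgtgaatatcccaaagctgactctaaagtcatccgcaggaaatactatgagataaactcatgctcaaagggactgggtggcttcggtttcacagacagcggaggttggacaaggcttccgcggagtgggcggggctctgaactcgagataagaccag
Pdcd1lg2, chr19:29410669-29410918, forward strand: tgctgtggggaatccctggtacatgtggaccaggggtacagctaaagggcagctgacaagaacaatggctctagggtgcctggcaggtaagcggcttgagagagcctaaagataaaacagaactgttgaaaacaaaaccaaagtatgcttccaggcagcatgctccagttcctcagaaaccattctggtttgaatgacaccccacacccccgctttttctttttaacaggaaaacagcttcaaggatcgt
Cd80, chr16:38458683-38458932, forward strand: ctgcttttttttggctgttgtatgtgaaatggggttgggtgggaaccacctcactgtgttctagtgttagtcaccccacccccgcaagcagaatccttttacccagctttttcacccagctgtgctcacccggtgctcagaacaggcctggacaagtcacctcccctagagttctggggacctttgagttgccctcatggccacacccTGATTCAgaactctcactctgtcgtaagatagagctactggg
Havcr2, chr11:46454681-46454930, forward strand: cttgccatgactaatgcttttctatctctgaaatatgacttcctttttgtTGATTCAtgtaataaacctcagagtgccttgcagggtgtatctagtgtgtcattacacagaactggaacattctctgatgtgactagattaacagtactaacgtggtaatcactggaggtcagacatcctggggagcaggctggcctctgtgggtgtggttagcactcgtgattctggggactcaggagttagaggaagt
Lgals9, chr11:78984925-78985174, reverse strand: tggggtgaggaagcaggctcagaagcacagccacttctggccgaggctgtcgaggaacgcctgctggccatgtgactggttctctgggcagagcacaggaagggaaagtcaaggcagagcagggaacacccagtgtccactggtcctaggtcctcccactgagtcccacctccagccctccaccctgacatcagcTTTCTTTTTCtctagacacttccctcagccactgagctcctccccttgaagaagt

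Of these letters, the GAAA repeat was found in *Lgals9* alone among the 8 members matched, on the opposite strand, and in 2.98% of all 32851 promoters of the same length. TGANTCA was found in *Cd80* and *Havcr2* and in 6.75% of all promoters. In both members the match reads TGATTCA, which is neither TGACTCA nor TGAGTCA. TTCNNNGAA was found in 7.02% of all promoters and in no member, which says only that these letters are not in this window. A match is a description of the sequence and not a bound site.

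Expression is given as RPKM, counts scaled by the length of the gene and the size of the library. *Lgals9* stood far above the other members in the liver, with a median of 240 RPKM in control liver, above 98.6% of the 22005 genes whose median there was above 0. The other 9 members had medians from 0.00514 RPKM (*Pdcd1lg2*) to 0.717 RPKM (*Lag3*) in control liver and from 0.011 to 1.08 RPKM (*Cd86*) in pre-metastatic liver. In the primary tumor their medians lay between 0.263 RPKM (*Pdcd1lg2*) and 10.4 RPKM (*Cd274*). In RPKM, the order of the members in the tumor was *Lgals9*, *Cd274*, *Cd80*, *Tigit*, *Havcr2*, *Pdcd1*, *Cd86*, *Lag3*, *Ctla4*, and *Pdcd1lg2*. The values of neighbors in that order overlapped across the tumors, except for *Lgals9*, whose lowest tumor at 41.3 RPKM was above the highest for *Cd274*, 22.8 RPKM.

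**Figure D1:**
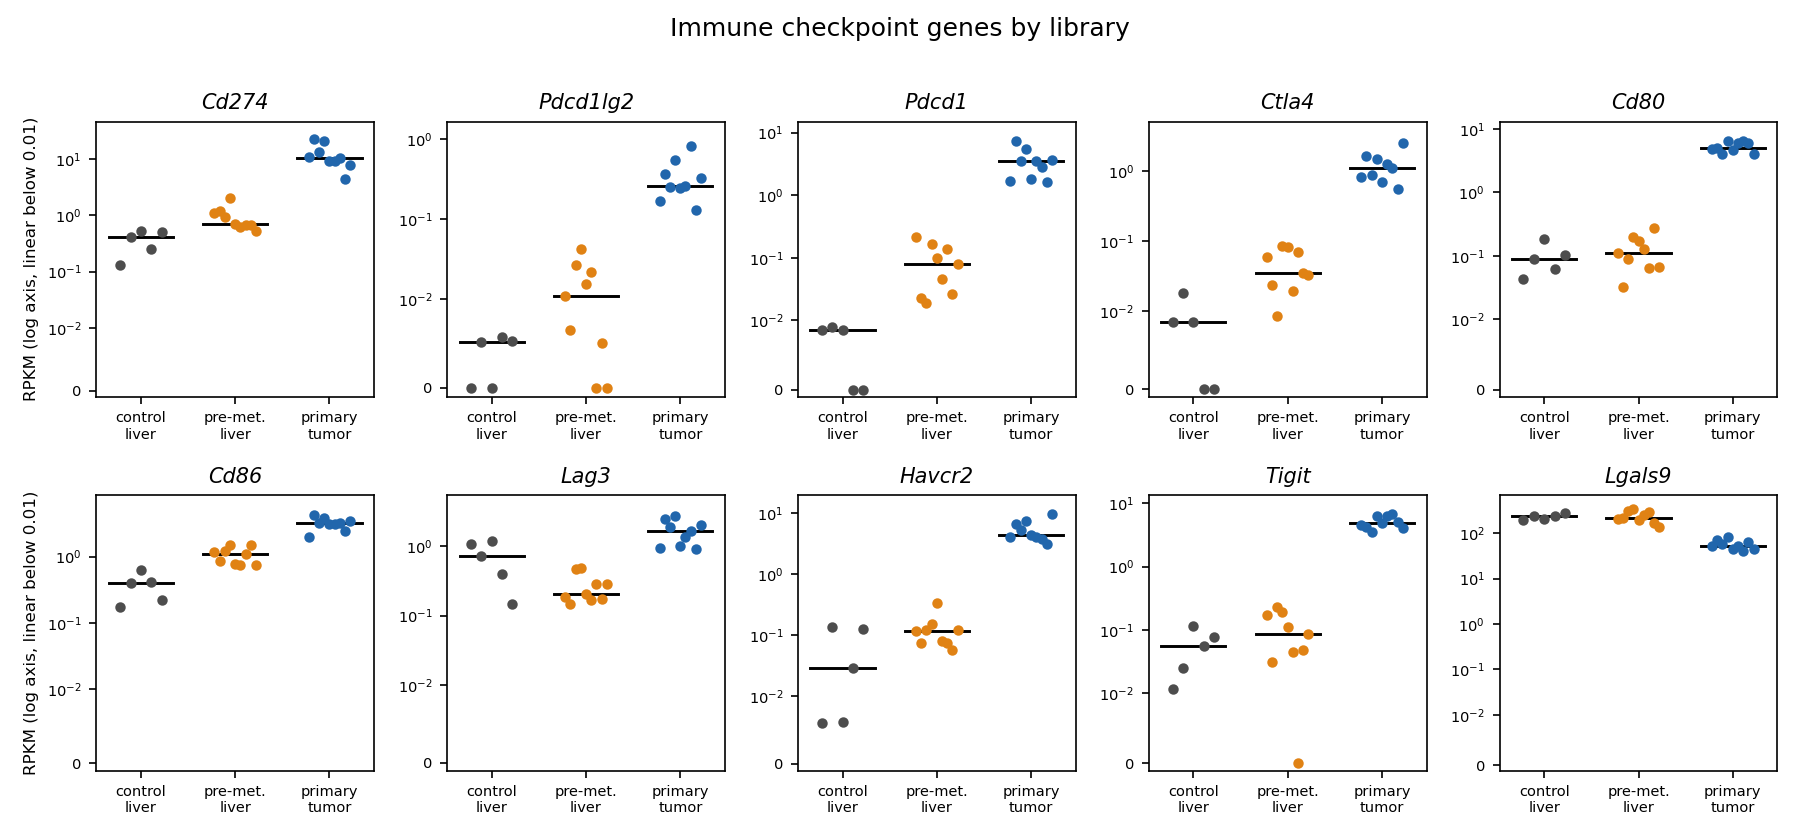
Expression of the 10 immune checkpoint genes in RPKM (vertical axis, logarithmic and linear below 0.01) in each of 5 control livers, 9 pre-metastatic livers, and 9 primary tumors. Points are libraries and bars are group medians. Every primary tumor is above every pre-metastatic liver for 9 genes and below it for *Lgals9*.

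The first comparison asks which checkpoint genes differ between the pre-metastatic and the control liver. Of the 10 members, 4 were higher in pre-metastatic than in control liver (*Cd274*, *Cd86*, *Pdcd1*, and *Ctla4*), 1 was lower (*Lag3*), and 5 did not pass the test (edgeR quasi-likelihood test, adjusted *p* under 0.05 over 23804 genes). Among all genes tested, 12.7% were called higher and 8.67% lower. The median log2 fold change of the members was 1.31, against 0.03 over all genes tested. Of the called genes, 59.4% were higher with TMM factors, which assume that most genes do not change, and 47.8% when only total counts were used. Each member kept its direction and its call between these scales.

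Among the ligands, *Cd274*, which encodes PD-L1, was at 0.132, 0.41, 0.522, 0.248, and 0.5 RPKM in the control livers of mice C1, C4, C5, C6, and C7, on 29 to 114 counts. In the pre-metastatic livers it ranged from 0.534 to 2.04 RPKM with a median of 0.693, on 110 to 412 counts. All 9 pre-metastatic livers were above all 5 control livers, narrowly so, since the lowest of them, that of mouse M12, exceeded the highest control by little. The log2 fold change was 1.43 (SE 0.33, 2.70-fold, edgeR adjusted *p* = 0.00513), and it was 1.61 within the early clock set (edgeR adjusted *p* = 0.0207).

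*Cd86*, a ligand of CD28 and CTLA-4, was at 0.172, 0.406, 0.623, 0.407, and 0.222 RPKM in the 5 control livers in the same order. It was at 0.737 to 1.5 RPKM in pre-metastatic liver, with a median of 1.08 RPKM on 128 to 295 counts. The groups did not overlap, and the log2 fold change was 1.62 (SE 0.28, 3.07-fold, edgeR adjusted *p* = 0.000728), the lowest adjusted *p* among the members in this comparison. Within the early clock set the log2 fold change was 1.45 (edgeR adjusted *p* = 0.00998). *Cd80*, the related ligand of the same receptors, was at 0.0426, 0.0904, 0.181, 0.0616, and 0.104 RPKM in control liver and at 0.0321 to 0.270 RPKM in pre-metastatic liver. Its groups overlapped widely and its log2 fold change of 0.48 (SE 0.46) had an edgeR adjusted *p* of 0.503.

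*Pdcd1lg2*, which encodes PD-L2, had 0 or 1 count in each control liver and 0 to 8 counts in each pre-metastatic liver. Summed over the groups these were 3 and 26 counts, a ratio per total counts of 4.79 with an exact 95% interval of 1.47 to 24.7 that covers counting error only. The test across mice gave a log2 fold change of 2.04 (SE 1.07, edgeR adjusted *p* = 0.149), and 3 of the 9 pre-metastatic livers had values within the range of the controls. *Lgals9*, which encodes galectin-9, was at 195, 240, 205, 243, and 271 RPKM in control liver and at 139 to 338 RPKM in pre-metastatic liver, with a median of 212 RPKM. It had 14202 or more counts in every liver, and its log2 fold change was 0.09 (SE 0.16, edgeR adjusted *p* = 0.748).

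Among the receptors, *Pdcd1*, which encodes PD-1, had 1, 1, 1, 0, and 0 counts in the control livers of mice C1, C4, C5, C6, and C7. The pre-metastatic livers had 22, 2, 2, 18, 11, 7, 12, 3, and 10 counts in mice M1, M2, M4, M5, M6, M7, M8, M10, and M12. The groups did not overlap, at 3 counts in all against 87, a ratio per total counts of 16 (exact 95% interval 5.31 to 79.3, counting error only). The edgeR test across mice gave an adjusted *p* of 0.00341, and 0.0155 within the early clock set. *Ctla4*, the other receptor of the activated T cell, had 1, 2, 1, 0, and 0 counts in the control livers and 6, 2, 1, 9, 9, 3, 6, 4, and 4 counts in the pre-metastatic livers in the same order. The groups overlapped in counts, and the ratio per total counts was 6.08 (exact 95% interval 2.21 to 23.3, counting error only, 44 against 4 counts). Its edgeR adjusted *p* of 0.0238 became 0.0541 without control mouse C6, 0.0507 without control mouse C7, and 0.0942 within the early clock set. The fitted log2 fold changes of such low counts, 3.86 for *Pdcd1* and 2.56 for *Ctla4*, depend on the small count that edgeR adds.

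*Lag3*, whose product binds MHC class II, was the one member called lower. It was at 1.07, 0.717, 1.18, 0.393, and 0.146 RPKM in the control livers of mice C1, C4, C5, C6, and C7, on 22 to 195 counts. In pre-metastatic liver it was at 0.147 to 0.486 RPKM with a median of 0.207, on 18 to 74 counts. Control liver C7 lay below every pre-metastatic liver in RPKM and C6 among them, while C1, C4, and C5 lay above all of them. The log2 fold change was -1.34 (SE 0.41, edgeR adjusted *p* = 0.0270), and the call was lost without control mouse C1, C4, or C5, where the edgeR adjusted *p* became 0.0932, 0.0521, and 0.0979. Within the early clock set the log2 fold change was -1.38 (edgeR adjusted *p* = 0.0292). By the exact Wilcoxon rank-sum test on RPKM, *p* was 0.147. An exact permutation test of means gave *p* = 0.0285 on log2(RPKM + 0.1) and *p* = 0.016 on log2(RPKM + 1), with mean differences of -0.97 and -0.39.

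*Lag3* lies just downstream of *Ptms*, a gene on the same strand of chromosome 6 (124913675 to 124917946) that was at 261 to 611 RPKM in the livers. Across the 14 livers, log2 levels of both genes correlated with a Pearson r of 0.667 (permutation *p* = 0.00921) and a Spearman rho of 0.556 (permutation *p* = 0.0432). Without mice M1 and M6, farthest from the median of *Ptms*, r was 0.675 (permutation *p* = 0.0170). Within the 9 pre-metastatic livers r was 0.530 (exact permutation *p* = 0.146), and within the 9 early-phase livers it was 0.793 (exact permutation *p* = 0.0097). The part of *Ptms* reads in the counts of *Lag3* was not tested.

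*Havcr2*, which encodes TIM-3 and is expressed by both T cells and myeloid cells, had 1, 21, 1, 4, and 19 counts in the control livers and 9 to 52 counts in pre-metastatic liver, with overlapping groups (log2 fold change 1.18, SE 0.67, edgeR adjusted *p* = 0.227). *Tigit* had 1, 2, 10, 4, and 6 counts in control liver and 0 to 18 in pre-metastatic liver (log2 fold change 0.90, SE 0.72, edgeR adjusted *p* = 0.401). Neither receptor passed the test, and the SE of both exceeded that of *Cd274*. By the exact Wilcoxon test on RPKM, 3 members did not overlap between the liver groups (*Cd274*, *Cd86*, and *Pdcd1*, all higher), beside 3.55% of all genes without overlap and higher and 4.42% without overlap and lower. Their exact *p* of 0.000999 is the smallest that 9 against 5 libraries allow, and its Benjamini-Hochberg adjusted value over all genes was 0.0125. For *Ctla4* the exact *p* was 0.002 (0.0183 adjusted over all genes).

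**Figure D2:**
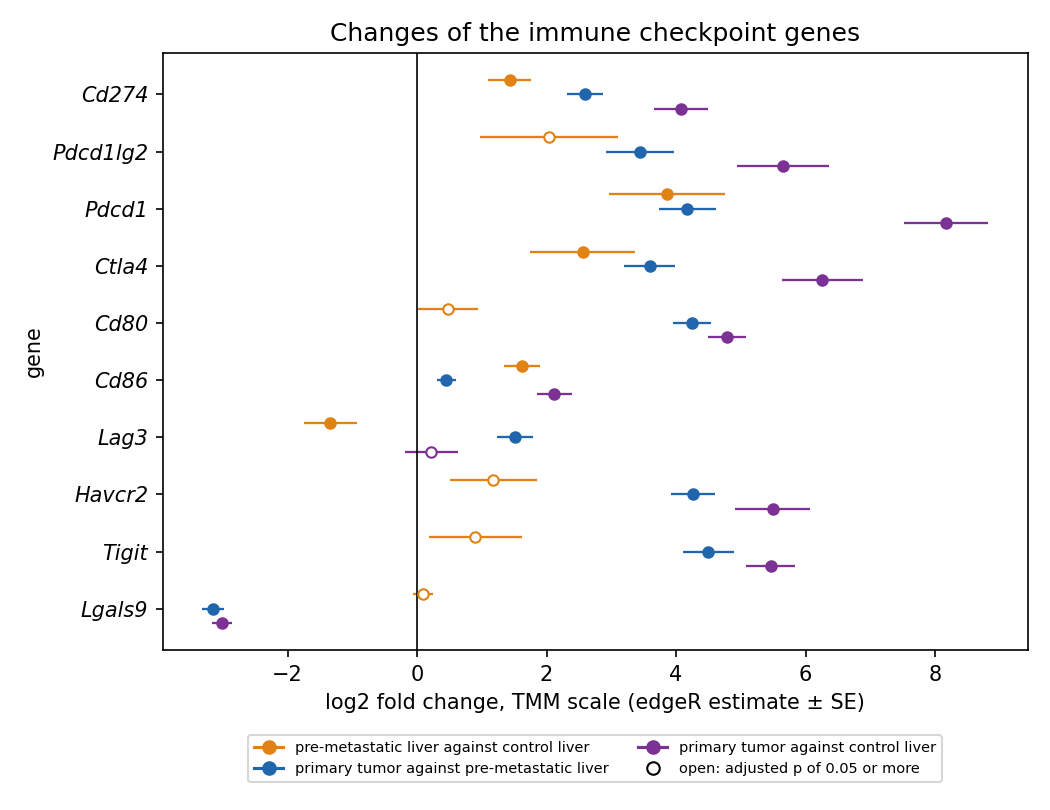
Log2 fold changes of the 10 genes (horizontal axis, edgeR estimate with TMM factors ± SE) in 3 comparisons, shown by color. Filled points have an adjusted *p* under 0.05. The SE was derived from the test and the fitted coefficient without the small count that edgeR adds. Called points below 0 are *Lag3* at -1.34 in the livers and *Lgals9* at -3.15 and -3.01 in the tumor against pre-metastatic and control liver, and the other called points are above 0. The values of *Pdcd1*, *Pdcd1lg2*, and *Ctla4* against control liver rest on 3 or 4 counts in all the controls.

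Genes of leukocytes moved in the livers as well. Of 8 monocyte and macrophage markers, 7 were higher in pre-metastatic than in control liver, none was lower, and their summed level was 72.7 to 198 RPKM against 39.7 to 82.2 RPKM. Of 9 T cell markers, 1 was higher (*Cd4*), with summed levels of 1.62 to 11.1 against 1.59 to 3.71 RPKM. Higher were also 3 of 4 B cell, 3 of 6 dendritic cell, 3 of 4 neutrophil, 1 of 6 NK and cytotoxic, 3 of 6 epithelial and tumor, and 1 of 5 hepatocyte markers, and 0 of the 3 regulatory T cell markers tested. On total counts 0 of 9 T cell, 1 of 4 B cell, and 2 of 6 dendritic cell markers were higher, and the monocyte and macrophage count stayed at 7. The 3 epithelial and tumor markers called higher in pre-metastatic liver were *Krt20* (log2 fold change 3.67, SE 1.24), *Vim* (1.42, SE 0.30), and *Mki67* (3.22, SE 0.41). Their edgeR adjusted *p* values were 0.0395, 0.00324, and 8.28e-05, and this list again had 3 higher genes on total counts. The same 3 genes were higher in the primary tumors above, where *Epcam*, *Krt8*, and *Krt18* were lower. Between the livers *Epcam*, *Krt8*, and *Krt18* did not pass the test. Their log2 fold changes were 1.07, -0.10, and 0.01 (edgeR adjusted *p* = 0.201, 0.597, and 0.984). The paper saw no liver metastasis on stained sections. The part of leukocytes, tumor cells, and other cells in the levels of the members was not tested. No marker of either list was at 0 in every library of a group. The members were therefore also set against leukocyte genes of the same library, in log2 ratios of counts to which library scaling does not apply. The genes *Cd3d*, *Cd3e*, and *Cd3g* of the T cell receptor complex served for the T cell receptors, and *Ptprc*, which encodes the common leukocyte antigen CD45, for the other members.

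Relative to *Ptprc*, *Cd274* was at -2.39 ± 0.45 (log2 ratio, SD, n = 5) in control liver and at -2.31 ± 0.41 (n = 9) in pre-metastatic liver (exact Wilcoxon *p* = 0.797). The median difference was 0.05 with an exact 95% interval from -0.46 to 0.61, so that its rise of 1.43 was not seen relative to *Ptprc*. *Cd86* was likewise at -2.47 ± 0.64 and -2.17 ± 0.26 (exact Wilcoxon *p* = 0.364, interval of the difference -0.23 to 0.86). With the macrophage genes *Csf1r* and *Adgre1* in place of *Ptprc*, the difference for *Cd86* was 0.64 (exact Wilcoxon *p* = 0.042). The ratio of *Lgals9* to *Ptprc* fell from 5.87 ± 0.33 to 4.51 ± 0.46 without overlap (exact Wilcoxon *p* = 0.000999), while the level of *Lgals9* itself had not passed the test. *Ptprc* was at 0.611 to 1.37 RPKM in control liver and at 1.6 to 4.69 RPKM in pre-metastatic liver. This ratio therefore followed the rise of its reference and does not show a fall of *Lgals9*.

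*Pdcd1* rose relative to the *Cd3* genes, from -6.39 ± 0.92 to -3.75 ± 1.27 (exact Wilcoxon *p* = 0.004), or from 0 to 2 counts per 100 *Cd3* counts in control liver to 1.87 to 19.2 in pre-metastatic liver. *Ctla4* rose from -6.24 ± 1.06 to -4.49 ± 0.95 (exact Wilcoxon *p* = 0.012, and 0.111 within the early clock set). Each control liver had at most 1 count of *Pdcd1* and at most 2 of *Ctla4*. The control ratios of these genes thus rest largely on the fixed amount added to each count and on the *Cd3* counts. In mice C1, C5, C6, and C7 they were the same for both genes, so the sizes of these rises are uncertain. *Lag3* fell from 0.10 ± 1.37 to -1.46 ± 0.83 (exact Wilcoxon *p* = 0.019). Per 100 *Cd3* counts, *Lag3* had 354, 123, 125, 104, and 24.4 counts in the control livers of mice C1, C4, C5, C6, and C7, so that its counts exceeded those of the *Cd3* genes together in 4 of 5 control livers and in 0 of 9 pre-metastatic livers. For *Tigit* the difference was 0.18 (exact Wilcoxon *p* = 0.438, interval -1.21 to 1.51).

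**Figure D3:**
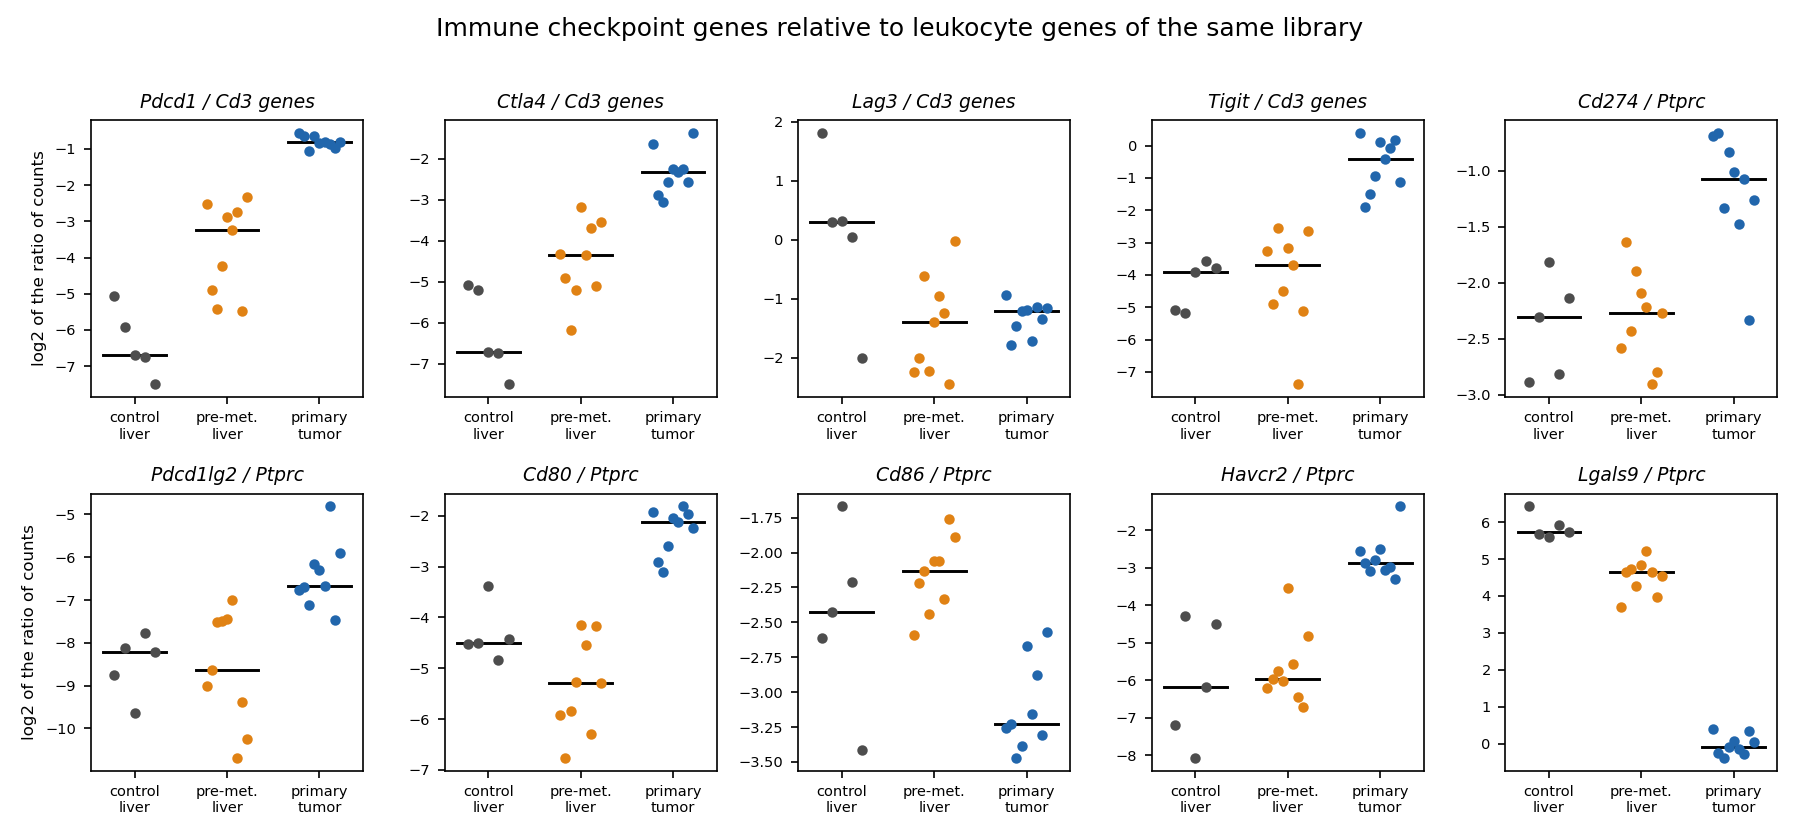
Log2 ratio of the counts of each gene (vertical axis, 0.5 added to both counts) to those of *Cd3d*, *Cd3e*, and *Cd3g* together or of *Ptprc* in the same library, for 5 control livers, 9 pre-metastatic livers, and 9 primary tumors. Points are libraries and bars are medians. The *Pdcd1* ratio of the tumors lies in a narrow band at -0.80 ± 0.16 (SD), and *Cd86* relative to *Ptprc* has a lower mean in the tumors than in pre-metastatic liver.

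The second comparison sets the primary tumor against the pre-metastatic liver of the same mice. Of the 10 members, 9 were higher in the tumor and 1, *Lgals9*, was lower (edgeR, adjusted *p* under 0.05 over 27798 genes). Among all genes tested, 40.0% were called higher and 33.0% lower, so calls were frequent between these tissues. The median log2 fold change was 3.51 over the members and 0.24 over all genes tested. No member's RPKM values overlapped between the groups, beside 39.1% of all genes without overlap and higher and 10.6% without overlap and lower. The exact Wilcoxon *p* was 4.11e-05 for each, the smallest that 9 against 9 allow. Because no values overlapped, the direction within each mouse had to be the same in 9 of 9 mice for every member. The exact sign-flip *p* of 0.00391, the smallest for 9 mice, follows from this and is not a separate result.

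The scale matters for the size of these changes. The median log2 fold change of all genes was 1.09 higher on total counts, the scale of RPKM, than with TMM factors, and 76.0% of the called genes were then higher in the tumor, against 54.8% with TMM factors. All members kept direction and call on both scales. Fold changes given here are those with TMM factors and are smaller for the rising genes than the ratio of RPKM values.

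*Cd274* was at 4.43 to 22.8 RPKM in the tumors with a median of 10.4 RPKM, on 1142 to 5186 counts, against a median of 0.693 RPKM in the livers of the same mice. The tumors of mice M2 and M5 were the highest and that of mouse M10 the lowest. Its log2 fold change was 2.59 (SE 0.28, 6.03-fold, edgeR adjusted *p* = 4.12e-08). Relative to *Ptprc* it was also higher in the tumor, by a median log2 difference of 1.2 (exact 95% interval 0.74 to 1.59, unpaired exact Wilcoxon *p* = 0.000782). *Pdcd1lg2* was at 0.132 to 0.828 RPKM in the tumors, on 32 to 148 counts, and every tumor exceeded every liver (log2 fold change 3.44, SE 0.53, edgeR adjusted *p* = 5.49e-06). The tumor of mouse M8 was the highest for *Pdcd1lg2* but near the median of the tumors for *Cd274*, while that of mouse M10 was the lowest for both. The neighboring ligand genes thus shared their order across the tumors only in part. Their Pearson r on log2(CPM + 1) was 0.486, against a median of 0.454 over all pairs of members.

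*Cd80* was at 4 to 6.48 RPKM in the tumors and at 0.270 RPKM or less in the livers (log2 fold change 4.25, SE 0.29, 19.1-fold, edgeR adjusted *p* = 2.84e-11). *Cd86*, in contrast, was at 1.97 to 4.17 RPKM in the tumors and at up to 1.5 RPKM in the livers, and its log2 fold change was only 0.45 (SE 0.15, 1.37-fold, edgeR adjusted *p* = 0.0125). This call was lost without mouse M2 (edgeR adjusted *p* = 0.0514) and within the 4 late-phase mice (0.38, edgeR adjusted *p* = 0.258). Relative to *Ptprc*, *Cd80* rose by a log2 mean of 3.06 (exact Wilcoxon *p* = 4.11e-05), whereas *Cd86* fell by 0.94 (exact Wilcoxon *p* = 8.23e-05). Against *Csf1r* and *Adgre1*, the difference for *Cd86* was 0.20 in the other direction (exact Wilcoxon *p* = 0.161). In RPKM, *Cd86* had the higher median of these ligands in both liver groups and *Cd80* had it in the tumor.

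*Lgals9* was at 41.3 to 80.0 RPKM in the tumors, with a median of 52.6 RPKM on 3285 to 7336 counts, below all livers, where it was at 139 RPKM or more. Its log2 fold change was -3.15 (SE 0.17, 8.85-fold lower, edgeR adjusted *p* = 6.09e-13). It remained the most highly expressed member in the tumor, and its median there was above 94.8% of the 25099 genes with a median above 0. Hepatocyte genes fell in the same comparison, 5 of 5, with a median log2 fold change of -10.88. The part of hepatocytes in the level of *Lgals9* was not tested.

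The 5 receptor genes were all higher in the tumor. *Pdcd1* was at 1.65 to 7.48 RPKM, on 168 to 901 counts, with the highest value in mouse M2 and the lowest in mouse M10 (log2 fold change 4.17, SE 0.44, edgeR adjusted *p* = 3.15e-08). *Ctla4* was at 0.547 to 2.50 RPKM (log2 fold change 3.59, SE 0.39, edgeR adjusted *p* = 3.93e-08). *Havcr2* was at 3.05 to 9.67 RPKM with its highest value in mouse M12, which was also the highest for *Ctla4* (log2 fold change of *Havcr2* 4.26, SE 0.34, edgeR adjusted *p* = 3.42e-10). *Tigit*, whose product competes with the activating receptor CD226 for PVR and nectin ligands, showed the largest log2 fold change of the members, 4.50 (SE 0.39, 22.6-fold, edgeR adjusted *p* = 1.39e-09), at 3.55 to 6.66 RPKM. *Lag3* showed the smallest of the receptors, 1.51 (SE 0.28, edgeR adjusted *p* = 5.17e-05), at 0.900 to 2.66 RPKM on 130 to 422 counts.

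T cell genes rose in the tumor as well, with 6 of 9 T cell markers higher, 1 lower (*Cd4*; 8 higher and 0 lower on total counts), and summed levels of 8.45 to 36.3 RPKM, while 6 of 6 NK and cytotoxic genes and 4 of 4 regulatory T cell genes were higher. Of the receptor genes, *Pdcd1*, *Ctla4*, and *Tigit* rose more than the *Cd3* genes, by log2 means of 2.95, 2.18, and 3.55 without overlap (exact Wilcoxon *p* = 4.11e-05 each). *Pdcd1* had 48.2 to 68.0 counts per 100 *Cd3* counts in the tumors, and *Tigit* 26.9 to 132. For *Lag3* the median difference from pre-metastatic liver in this ratio was 0.20 (exact 95% interval -0.54 to 0.90, exact Wilcoxon *p* = 0.546). With the T cell genes *Cd247*, *Cd2*, and *Cd5* as reference, the mean log2 difference of *Lag3* was 0.77 (exact Wilcoxon *p* = 0.0142), and with the *Cd3* genes it was -0.06 within the early clock set (exact Wilcoxon *p* = 0.841), so this comparison depended on the reference and the mice. *Havcr2* rose by a log2 mean of 2.96 relative to *Ptprc*, again without overlap (exact Wilcoxon *p* = 4.11e-05).

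The third comparison, primary tumor against control liver, uses the same tumors and the same control livers as the others and joins both steps. Of the 10 members, 8 were higher, *Lgals9* was lower, and *Lag3* did not pass the test (edgeR, 27188 genes tested, of which 38.9% were called higher and 31.0% lower). Values in RPKM did not overlap for 8 members that were higher and for *Lgals9*, beside 42.3% of all genes without overlap and higher and 13.6% without overlap and lower. The median log2 fold change was 5.13 over the members and 0.34 over all genes tested. On total counts it shifted upward by 0.97 for all genes, and 75.2% in place of 55.6% of the called genes were higher.

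*Cd80* and *Cd274* were higher than in control liver by log2 fold changes of 4.79 (SE 0.29) and 4.08 (SE 0.42), and *Havcr2* and *Tigit* by 5.49 (SE 0.58) and 5.46 (SE 0.38), with edgeR adjusted *p* values from 1.32e-10 to 2.18e-07. For genes with 3 or 4 counts in all the controls, ratios per total counts are given with their exact 95% counting intervals. *Pdcd1* had a ratio of 647 (221 to 3137), *Ctla4* of 163 (63.6 to 600), and *Pdcd1lg2* of 110 (37.3 to 533). *Cd86* was higher by 2.12 (SE 0.27, edgeR adjusted *p* = 2.28e-06) and *Lgals9* lower by a log2 fold change of -3.01 (SE 0.15, edgeR adjusted *p* = 8.03e-12).

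*Lag3* differed from control liver by a log2 fold change of 0.22 (SE 0.41, edgeR adjusted *p* = 0.645). On total counts it was 1.23 higher (edgeR adjusted *p* = 0.0141), and the exact Wilcoxon test on RPKM gave *p* = 0.0290, so whether *Lag3* passed the test depended on the scale. With TMM factors the difference was -0.06 within the early clock set and -0.05 without control mouse C7.

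Across the 9 tumors, the level of *Pdcd1* followed that of the *Cd3* genes closely, with a Pearson r of 0.979 (exact permutation *p* = 4.68e-05, or 0.000468 after adjustment for 10 relations) and a Spearman rho of 0.967 (exact permutation *p* = 0.000165). Without mice M2 and M10, farthest from the median of *Pdcd1*, r was 0.972 (exact permutation *p* = 0.000595), and r was 0.982 when values were centered within the clock sets. *Lag3* followed the *Cd3* genes with an r of 0.934 (exact permutation *p* = 0.000449, adjusted *p* = 0.00225) and a rho of 0.933 (exact permutation *p* = 0.00075), and with an r of 0.883 without mice M1 and M10 (exact permutation *p* = 0.00873). The log2 ratios to the *Cd3* genes in these tumors had an SD of 0.16 for *Pdcd1* and 0.28 for *Lag3*. They come from the same libraries and genes as the correlations and are not a separate result.

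*Tigit* did not follow the *Cd3* genes in the tumors, with an r of -0.0418 (exact permutation *p* = 0.913) and a rho of -0.267 (exact permutation *p* = 0.493). Without mice M4 and M8 r was 0.125 (exact permutation *p* = 0.766). It had 132 counts per 100 *Cd3* counts in mouse M1, where the *Cd3* genes were lowest at 3.99 RPKM, and 26.9 in mouse M2, where they were highest at 18.7 RPKM. The level of *Tigit* itself varied little, by 1.88 times from the lowest to the highest tumor, against 4.53 times for *Pdcd1*. *Ctla4* and *Havcr2* had r values with the *Cd3* genes of 0.702 and 0.672 (exact permutation *p* = 0.0354 and 0.0490), which did not pass after adjustment over the 10 relations (0.0884 and 0.0980). Their rho was 0.767 in each case (exact permutation *p* = 0.0214, adjusted *p* = 0.0428), and r without the 2 farthest tumors was 0.842 and 0.784 (exact permutation *p* = 0.0198 and 0.0349).

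**Figure D4:**
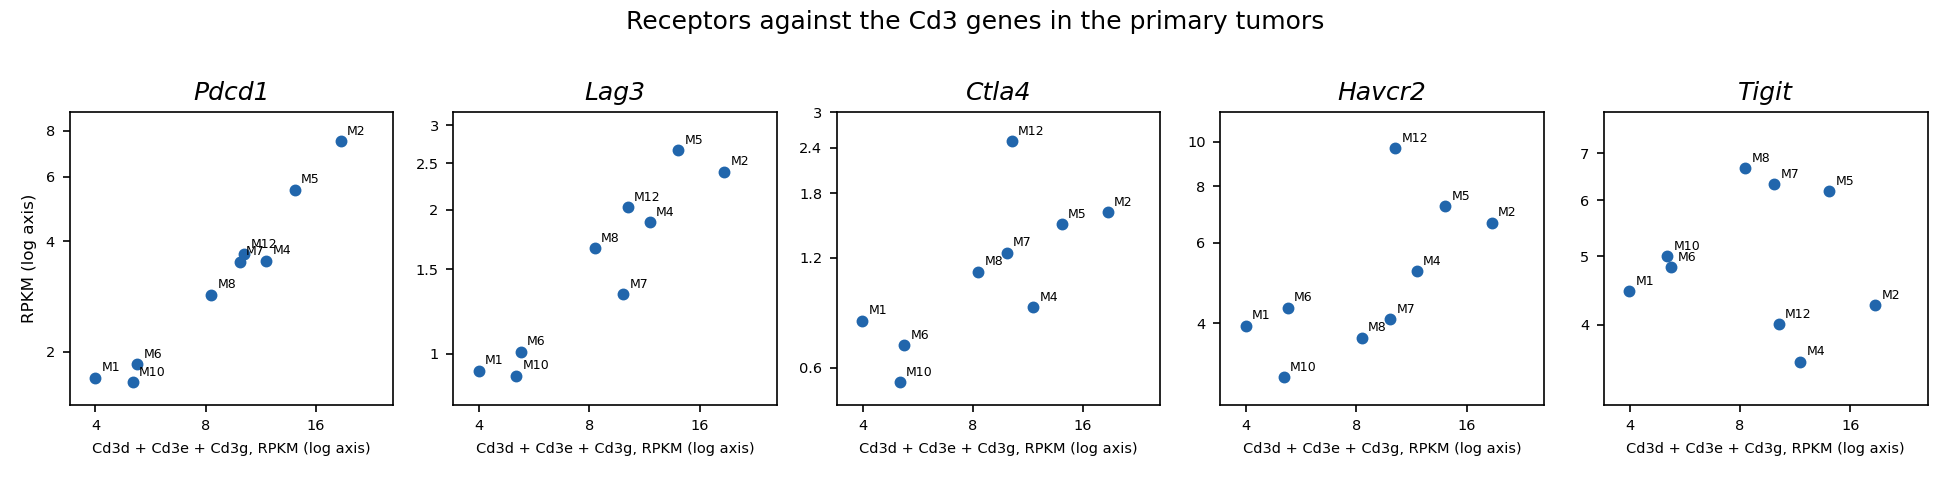
Level of 5 receptor genes (vertical axes, RPKM, logarithmic) against the summed level of *Cd3d*, *Cd3e*, and *Cd3g* (horizontal axes, RPKM, logarithmic) in the 9 primary tumors, with each point labeled by its mouse. *Pdcd1* (r = 0.979) and *Lag3* (r = 0.934) rise with the *Cd3* genes, and *Tigit* (r = -0.0418) does not.

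Of the 5 receptor and ligand pairs, *Pdcd1* and *Cd274* correlated across the tumors with an r of 0.783 (exact permutation *p* = 0.0128, adjusted *p* = 0.0428) and a rho of 0.633 (exact permutation *p* = 0.0760). This relation rested on mice M2 and M10, without which r was 0.525 (exact permutation *p* = 0.224). For *Pdcd1* and *Pdcd1lg2* r was 0.552 and rho 0.717 (exact permutation *p* = 0.123 and 0.0369, adjusted 0.175 and 0.0614). For *Ctla4* and *Cd86* r was 0.641 and rho 0.783 (exact permutation *p* = 0.0619 and 0.0172, adjusted 0.103 and 0.0428). Without the 2 tumors farthest from the median, r was 0.499 and 0.691 for these pairs (exact permutation *p* = 0.245 and 0.0683). *Ctla4* and *Cd80* had an r of -0.139 (exact permutation *p* = 0.718), which turned to 0.58 without mice M10 and M12 (exact permutation *p* = 0.172). *Havcr2* and *Lgals9* had an r of 0.177 (exact permutation *p* = 0.644) and of 0.369 without mice M5 and M12 (exact permutation *p* = 0.415).

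Among all 45 pairs of members, the median r across the 9 tumors was 0.454 on log2(CPM + 1), and 34 pairs were above 0. The tumors share library and depth within each pair of values, and these coefficients are descriptions. *Pdcd1* and *Lag3* had the highest r, 0.930, followed by *Cd80* and *Tigit* at 0.926. *Cd80* and *Tigit* stood apart from the others, with r between -0.417 and 0.068 with each of *Pdcd1*, *Lag3*, *Cd86*, *Ctla4*, *Havcr2*, and *Cd274*. Both varied less between tumors than most members, with coefficients of variation of 18.3% and 22%, against 54.5% for *Pdcd1* and 50.3% for *Cd274*.

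**Figure D5:**
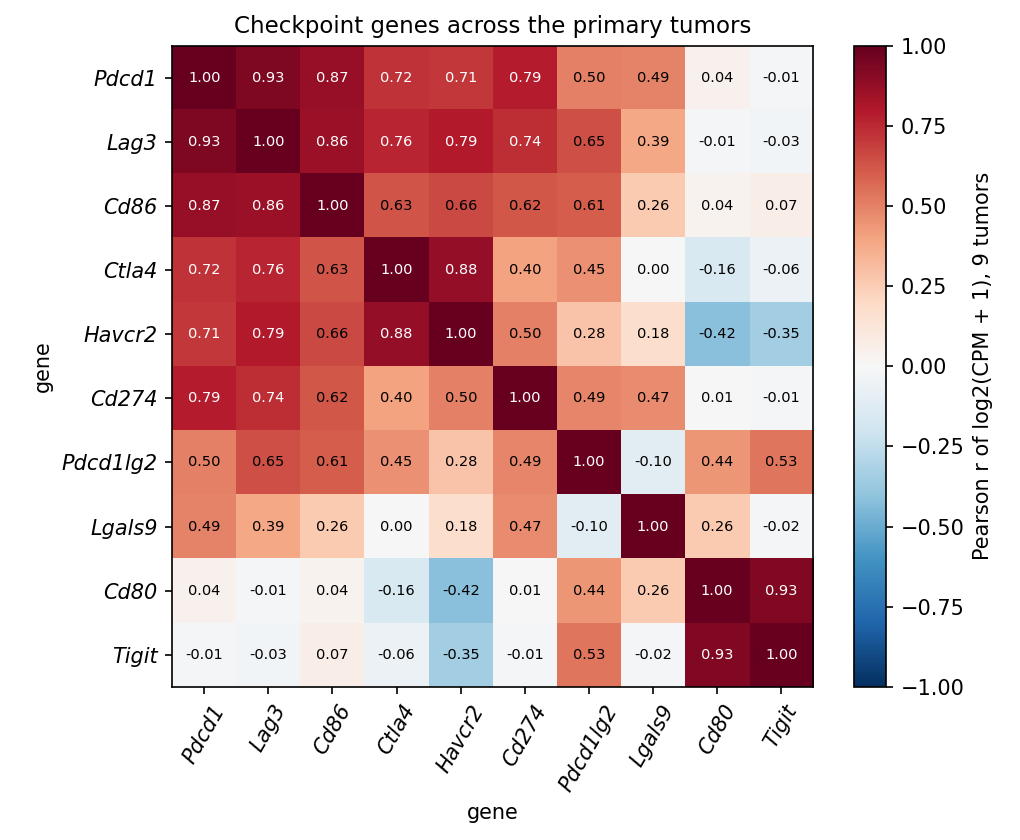
Pearson r of log2(CPM + 1) across the 9 primary tumors for each pair of the 10 genes (both axes), with color and number giving r. *Pdcd1* and *Lag3* form the pair with the highest r, 0.93, and *Cd80* and *Tigit* correlate with each other but with few of the others.

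The genes most like each member across the tumors were taken from 15603 genes with at least 10 counts in every tumor, by the highest r of log2(CPM + 1). For *Pdcd1* they were *Cd3g* (r = 0.986), *Cd3e* (0.967), and *Cd8b1* (0.960), and for *Cd86* *Mfng* (0.956), *Cd8a* (0.945), and *Cd3e* (0.938). *Lag3* was most like *Tmem132a* (0.956), *Fyn* (0.952), and *Unc13d* (0.949), and *Ctla4* most like *Cd96* (0.944), *4833422C13Rik* (0.920), and *Cst7* (0.908). *Tigit* was most like *Tesk2* (0.960), *2810474O19Rik* (0.959), and *Zfp53* (0.955), none of them a T cell marker of the lists used here, and *Cd80* was most like *Tesk2* (0.957), *Ccl7* (0.95), and *Tigit*. The closest gene for *Cd274* was *Pik3r4* (0.931) and for *Pdcd1lg2* *Irak2* (0.934). For *Lgals9* it was a gene named only by its identifier (0.963), followed by *Smg5* (0.960). Taking the highest of 15603 r values over 9 tumors gives high r by selection alone, so these names are descriptions.

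The wider pathway was followed in lists of related genes. Of 14 other inhibitory receptors, 8 were higher in pre-metastatic than in control liver and none was lower. They included *Cd244* (log2 fold change 2.59, edgeR adjusted *p* = 0.00773) and *Btla* (2.24, edgeR adjusted *p* = 0.00557), receptors of the SLAM and immunoglobulin families. Their median log2 fold change was 1.17. In the tumor against pre-metastatic liver, 10 of the 14 were higher and none lower, among them the lectin-like receptors *Klrg1* (3.56, edgeR adjusted *p* = 3.52e-05) and *Klrc1* (2.78, edgeR adjusted *p* = 4.90e-06). On total counts these numbers were 8 and 12.

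Of the other inhibitory ligands and enzymes, 5 of the 14 tested were higher in pre-metastatic liver, with *Cd276*, which encodes B7-H3, at 1.94 (edgeR adjusted *p* = 6.00e-05) and *Lgals3*, which encodes galectin-3, at 1.62 (edgeR adjusted *p* = 0.00111). *Ceacam1* was lower by -0.29 (edgeR adjusted *p* = 0.0397). In the tumor against pre-metastatic liver, 8 of 15 were higher and 6 lower (9 and 4 on total counts). *Ido1*, which encodes a tryptophan-degrading enzyme, was at 7.81 (edgeR adjusted *p* = 4.44e-10) and *Lgals3* at 4.37 (edgeR adjusted *p* = 3.17e-13). The nectin ligand *Nectin3* fell by 7.03 on the log2 scale (edgeR adjusted *p* = 1.13e-17). *Fgl1*, a hepatocyte product and ligand of LAG-3, fell by 11.17 (edgeR adjusted *p* = 1.25e-09), from 1405 to 3143 RPKM in pre-metastatic liver to 0.130 to 10.2 RPKM in the tumor. In the livers, where *Lag3* was lower, *Fgl1* was higher (log2 fold change 1.03, edgeR adjusted *p* = 0.0341), a value singled out after it was seen.

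Costimulatory receptors and ligands activate T cells where the checkpoints dampen them. In pre-metastatic against control liver 1 of 12 tested was higher, *Tnfrsf9*, which encodes 4-1BB (2.42, edgeR adjusted *p* = 0.0499), and on total counts none passed. In the tumor against pre-metastatic liver 10 of 13 were higher and none lower, led by *Tnfrsf9* (7.25, edgeR adjusted *p* = 7.74e-11) and its ligand *Tnfsf9* (5.66, edgeR adjusted *p* = 1.10e-09). *Tnfrsf9* reached 18.1 to 57.7 RPKM in the tumors, above each receptor gene among the members in RPKM.

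Of 11 genes of PD-1 and CTLA-4 signaling, 3 were higher in pre-metastatic liver, among them *Pik3cd* (1.36, edgeR adjusted *p* = 0.000938) and *Akt1* (0.32, edgeR adjusted *p* = 0.0429), and the T cell kinase gene *Zap70* was lower (-0.97, edgeR adjusted *p* = 0.00196). On total counts 1 was higher and 2 lower. In the tumor against pre-metastatic liver 6 were higher, with *Lck* at 1.4 and *Akt1* at 1.11 (edgeR adjusted *p* = 0.000211 and 1.12e-08). Lower were 4, with *Zap70* at -1.97 and *Lrba*, whose product protects CTLA-4 from degradation, at -0.64 (edgeR adjusted *p* = 1.12e-06 and 2.42e-07), but on total counts 10 were higher, 1 was lower, and *Lrba* changed sign to 0.47. *Zap70* fell from a median of 2.50 to 1.12 RPKM while *Lck*, another T cell kinase gene, rose from 0.591 to 3.15 RPKM.

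Of 13 genes of the interferon response that acts upstream of *Cd274*, 7 were higher in pre-metastatic than in control liver and none lower (5 and none on total counts). *Gbp2*, an interferon-induced GTPase gene, was at 1.51 (edgeR adjusted *p* = 0.00399). *Ifng* itself had a median of 0.0145 RPKM in control and 0.0147 RPKM in pre-metastatic liver (log2 fold change 0.73, edgeR adjusted *p* = 0.649). In the tumor against pre-metastatic liver 8 were higher, with *Ifng* at 3.28 and *Gbp2* at 3.03 (edgeR adjusted *p* = 0.000153 and 6.42e-09), and 4 were lower (9 and 2 on total counts). *Cmtm6*, whose product stabilizes PD-L1 at the cell surface, fell by 1.74 and *Stat3* by 1.64 on the log2 scale (edgeR adjusted *p* = 1.42e-12 and 1.92e-12).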

How the data were processed

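Samples were grouped by the group label, and livers and tumors were matched by the mouse number. The authors deposited raw counts per gene and RPKM for each library. Recomputing RPKM from the counts changed no value by more than 1.75e-06 of itself. The submitters' processing notes list HISAT, HISAT2, HTSeq 0.6.0, and mm10. The library kit does not mark strand, and whether replicates came from separate litters or days was not given, so *p* values measure the spread between these mice.

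Groups were compared with edgeR 4.0.16 in R 4.3.3 (TMM factors, quasi-likelihood test, two-sided, Benjamini-Hochberg over all genes with at least 10 counts in all over the libraries compared), which tested all 10 members in each comparison. The SE is the absolute fitted log2 coefficient, without the small count that edgeR adds, divided by the square root of the F statistic of the test. The log2 fold change printed beside it includes that added count, so for genes of few counts the SE is only approximate. Exact Wilcoxon tests enumerated all assignments of the libraries to the groups. These tests, ratios (0.5 added to each count), and correlations of log2(RPKM + 0.1) were computed under Python 3.11.15 with numpy 2.4.6 and scipy 1.17.1. Tables were handled in pandas 2.3.3 and plots made in matplotlib 3.10.9. Intervals of ratio differences invert the Wilcoxon test at 95%. Intervals of counts are binomial and cover counting error only. Even the most similar replicates had a chi-square over degrees of freedom of 49.3, so no library was a copy.

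Tumor and liver of a number come from the same mouse and so are paired. The main edgeR fit and the Wilcoxon tests and intervals between tumor and pre-metastatic liver did not use this pairing. No paired test was run for the ratios to leukocyte genes. The deviations of 12453 genes from their group means had a mean correlation of 0.0876 for tissues of one animal and of -0.0111 for tissues of different animals. DESeq2 1.42.0, upper-quartile factors, other filters, the clock sets, the mouse as a block, and leaving out libraries were alternatives. Total counts without factors, the late clock set, and RPKM scaled by median-ratio factors were added after seeing the data. The tests were checked on simulated data. The members, the lists of related genes, and the clock genes were chosen with earlier results of these data known. Named genes are the 10 members, *Ptms*, up to 2 genes per direction of each pathway list with the largest called log2 fold change, and the 3 genes most like each member. Some of the genes that this rule names are not reported here.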

Additional observations from a re-analysis of the deposited data

Results flagged for a closer look

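In 30 groups of libraries, 1 for each member and tissue, the extreme value was compared with its nearest neighbor, and 2 groups held a library standing apart by Dixon's criterion, where chance gives about 1 in 20. *Cd274* in pre-metastatic liver was highest in mouse M5, at 2.04 RPKM, and the gap to the next liver was 0.569 of the range of the group (critical value 0.493). *Havcr2* in pre-metastatic liver was highest in mouse M6, at 0.339 RPKM on 52 counts, with a gap of 0.662 of the range.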

How the results depend on the processing

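Leaving out single libraries, or in the tumor against pre-metastatic liver a mouse with both of its libraries, 4 to 5 members were called by edgeR between the livers, 9 to 10 between tumor and pre-metastatic liver, and 9 in each case between tumor and control liver, while the genes called numbered 4056 to 5163, 19545 to 19814, and 18200 to 18865. With the mouse as a replicate block, 19195 genes in place of 20295 were called between tumor and pre-metastatic liver, and the pairing changed no member's call. DESeq2 changed no member's call. With at least 10 counts in at least 5 libraries, *Ctla4*, *Pdcd1lg2*, and *Tigit* were not tested between the livers, where 4 members were then called.

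These directions changed, and the cause was not tested. *Pdcd1lg2* relative to leukocyte genes differed between the livers by 0.24 with other reference genes and by 0.55 in the early clock set, in place of -0.10. The mean log2 difference of *Lgals9* in RPKM between the livers became 0.30 in the early set and 0.08 after median-ratio scaling. *Cd86* relative to leukocyte genes became 0.20 (tumor against pre-metastatic liver) and 0.84 (tumor against control liver, exact Wilcoxon *p* = 0.012) with *Csf1r* and *Adgre1* as reference. *Lag3* relative to the *Cd3* genes became -0.06 between tumor and pre-metastatic liver in the early set. Its edgeR difference between tumor and control liver became -0.06 in the early set, and ranged from -0.05 (without control mouse C7) to 0.47 when single libraries were left out. Without the 2 tumors farthest from the median, r became 0.58 for *Ctla4* with *Cd80* and 0.125 for *Tigit* with the *Cd3* genes. Counts of 0 to 22 per liver limit what can be said of *Pdcd1*, *Ctla4*, *Pdcd1lg2*, and *Tigit* there.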
